A study of Homo sapiens with 8 samples.

Results

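The interaction of a BAP1 guide with ionising radiation was measured as a difference between differences: the change after irradiation in cells given the guide, minus the change after irradiation in cells without it. All 8 arrays of the series entered this contrast, 2 in each of 4 groups, and all 49293 non-control probe sets of the array were its members, none selected by value. The cells were PANC1, a human pancreatic ductal carcinoma line. Control cells carry the genotype label wild type and were not irradiated. The sgBAP1 cells had BAP1 targeted with CRISPR/Cas9 and were not irradiated, the IR cells were of wild-type genotype and received 10 Gy, and the sgBAP1 + IR cells had both. RNA was collected 3 days after irradiation and hybridised to Affymetrix PrimeView arrays. The study describes 1 guide, delivered by plasmid transfection with puromycin selection, and a non-targeting guide for its control cells, while the labels do not say whether the wild-type arrays carry one. PANC1 is also described there as heterozygous for loss of BAP1, so wild type means not targeted. The BAP1 transcript was not analysed here, and the labels were therefore not checked against the targeted gene. No source states that both arrays of a group stem from separate cultures, so p-values measure only the spread between these samples.

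BAP1 is a nuclear deubiquitinase that works with ASXL proteins to remove ubiquitin from histone H2A, the mark that Polycomb repressive complexes place. It has also been linked to the repair of DNA breaks. Ionising radiation breaks DNA, activates the ATM and ATR kinases and, in cells with working p53, raises the cell cycle inhibitor CDKN1A and the stress gene GADD45A. PANC1 cells carry a mutant p53. Days after irradiation, surviving cells often show interferon, inflammatory and matrix genes at altered levels. Where a perturbation already raises the same genes as radiation, both changes can add up on the log2 scale, fall short of that sum or exceed it, and the interaction is the distance from that sum.

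Values are log2 expression from the robust multi-array average (RMA), and an interaction of -1.0, as for GAL below, means that the fold change after IR in guide cells was 0.501 times that in cells without the guide. Errors are standard errors from limma with n = 2 arrays per group. A call needed an adjusted p under 0.05 (Benjamini-Hochberg, all 49293 probe sets) together with a fold over 1.5, which is 0.585 log2. Genes are counted through their probe set with the highest mean, 18132 in all. Arrays of a group correlated at 0.998 to 0.9985 across probe sets and arrays of different groups at 0.9881 to 0.9952. The ductal markers KRT8, KRT18, KRT19 and EPCAM lay at or above the 90.4 percentile of each array and KRT7 between the 46.2 and 67.0 percentile. The islet hormones GCG and SST reached at most the 8.95 percentile, fibroblast markers (DCN, LUM and PDGFRA) reached the 29.1 percentile and endothelial markers (PECAM1, VWF and CDH5) the 49.2. Acinar markers ranged from PNLIP, at most at the 3.88 percentile, to PRSS1, at 57.8 to 62.7. Immune markers ranged from PTPRC, at most at 11.6, over CD3E (35.1 to 39.2) to CD68 (66.4 to 85.4), which epithelial cells also express. No marker had a called interaction, and their part in the results was not tested. In bulk RNA, fewer cells of a state and less RNA per cell cannot be told apart.

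The interaction was lower more often than higher among called probe sets. It was called lower for 164 probe sets (0.333% of those tested) and higher for 54 (0.11%), together 218 (0.442%), which corresponds to 56 genes (0.309% of genes) and 28 genes (0.154%), together 84 (0.463%). Lower means that IR raised the gene less, or reduced it more, in guide cells. Called sizes ran from 0.586 to 1.75 log2 with a median of 0.737, and adjusted p from 0.0183 to 0.0489. The median interaction over all genes was 0.02 log2 (quartiles -0.09 and 0.13), so the excess of lower calls did not come with a downward shift of all genes. The calls rested on all 8 arrays. With any 1 array left out, no probe set was called by limma, the smallest adjusted p ranged from 0.0568 to 0.114, and between 6346 and 8261 probe sets had an unadjusted p under 0.05, against 8076 with all arrays. At a fold over 1.5 and an unadjusted p under 0.01, a rule added after those counts were seen, 484 probe sets passed with all arrays and 494 to 662 with 1 array left out. All 218 called probe sets kept their sign in each of these 8 fits, and 203 to 210 of them also kept the fold. They were selected on the same 8 arrays, so this describes the calls and is not independent support for them.

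Most genes called for 10 Gy without the guide had an effect of the same sign with it. IR without the guide raised 399 genes (2.2%) and lowered 251 (1.38%), and IR with the guide raised 345 (1.9%) and lowered 233 (1.29%). Both IR effects share no array, and they correlated across all 18132 genes with Pearson's r = 0.772, given as a description since genes are not independent replicates. Of the 650 genes (3.58%) called for IR without the guide, 631 moved in the same direction with it, against 12269 of all 18132 genes. Their median size was 0.826 log2 without and 0.652 with the guide, and 508 were larger without it, against 8689 of all genes. The median without the guide and the count of 508 are raised by the selection of those genes on that effect. For the 578 genes (3.19%) called for IR with the guide, the medians were 0.745 log2 without and 0.797 with the guide. Of these 578, 563 had the same sign and 221 were larger without the guide, with the selection acting the other way. The same interaction can be split by the guide. The guide without IR raised 421 genes (2.32%) and lowered 474 (2.61%), and in irradiated cells it raised 180 (0.993%) and lowered 204 (1.13%).

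A missed call does not show equal effects, so the 95% interval of the interaction was used to bound it. For 15706 of 18132 genes (86.6%) the whole interval lay within a fold of 1.5 either way. Among the 865 genes called for IR in 1 or both genotypes this held for 441 (51.0%).

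**Figure D1:**
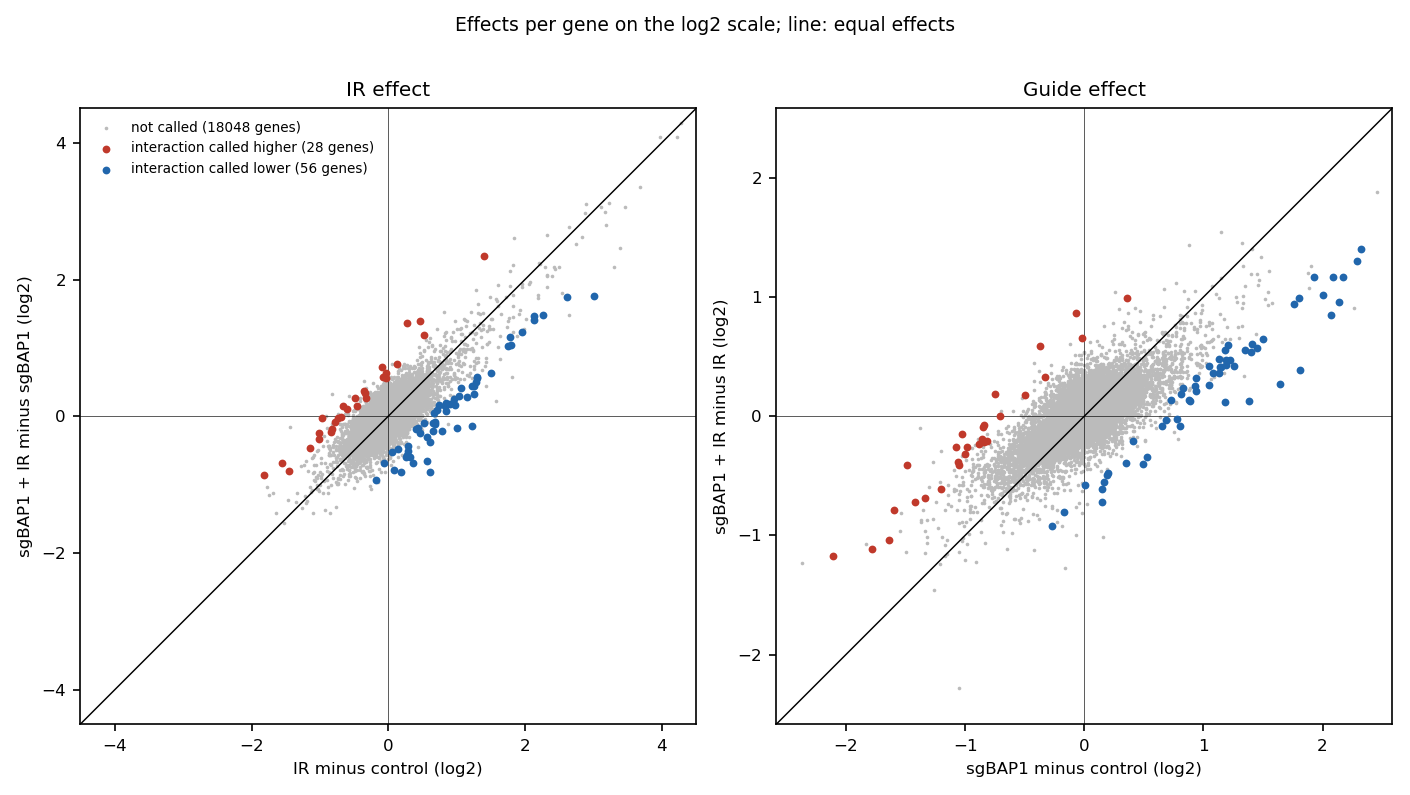
Effect of IR without (horizontal axis) and with the guide (vertical axis), and effect of the guide without and with IR, in log2 per gene, 2 arrays per group; the diagonal marks equal effects. The 56 genes with a called lower interaction (blue) lie below the diagonal and the 28 with a higher one (red) above it, and 54 of the blue genes lie to the right of 0 in each panel.

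The largest IR effects that were bounded in this way belonged to matrix, adhesion and neuronal genes. COL4A1, a chain of basement membrane collagen IV, read 3.93 and 4.20 log2 on the control arrays, 4.69 and 4.53 in sgBAP1, 8.38 and 8.30 in IR and 8.88 and 8.92 in sgBAP1 + IR. Both irradiated groups were far above both unirradiated ones. Its interaction was 0.02 log2 with an interval of -0.31 to 0.34. Its control mean, 4.06 log2, was under each array's lower quartile (4.299 to 4.39), so the size of the rise is uncertain, and with values under 5 log2 set to 5 the interaction was 0.56. Another COL4A1 probe set had a called interaction of 0.77 log2. The receptor tyrosine kinase EPHB1 rose 18.6-fold and 16.9-fold (interval of the interaction -0.35 to 0.08), and the heparan sulfate sulfotransferase HS6ST2 rose 8.7-fold and 8.32-fold (-0.33 to 0.20, although another of its probe sets was at -1.12). Annexin gene ANXA3, the neurofilament gene NEFL and the FGF carrier FGFBP1 were the other 3, with intervals of -0.51 to 0.16, -0.05 to 0.45 and -0.53 to 0.06. All but EPHB1 and HS6ST2 were dim in control cells, with means of 3.33 log2 for ANXA3, 4.06 for NEFL and 4.03 for FGFBP1. With values under 5 log2 set to 5 the interaction moved to 0.70 for NEFL, which passed both thresholds, and to 0.34 for ANXA3, and another NEFL probe set was at -0.75. The bounds of COL4A1, ANXA3 and NEFL therefore hold only for the values as deposited.

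Among the 56 genes with a lower interaction, the guide alone and IR alone mostly had effects above 0. By definition, both together stayed below the sum of these effects. IR without the guide was above 0 in 54 of them, against 49.3% of all genes, and called higher in 38, against 2.2%. With the guide, IR was called higher in 10 and lower in 9, against 1.9% and 1.29% of all genes. The guide alone was above 0 in 54, against 50.2% of all genes, and called higher in 44, against 2.32%. Its effect in irradiated cells was under the fold threshold in 39. Calls for IR alone and for the guide alone did not always fall on the same gene. HBEGF was called for the guide alone but not for IR alone, and ATP8B1 the other way round. The control group had the lowest mean in 52 of the 56. The control arrays enter the interaction and both single effects, so these counts describe the called genes and are not independent of the call. The IR effect was smaller with the guide in 29, of opposite sign in 25 and larger in 2. In 1 gene, EGR1, both IR effects were called in opposite directions.

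The immediate early gene EGR1 had the largest of these, while HBEGF and DUSP5, of the MAPK output list, were called with smaller sizes. EGR1, a zinc finger transcription factor induced within minutes by growth factors and stress, read 6.5 and 6.27 log2 in control, 8.24 and 8.16 in sgBAP1, 7.12 and 6.88 in IR and 7.32 and 7.46 in sgBAP1 + IR. The sgBAP1 arrays were the highest and the control arrays the lowest, with no overlap between any of the groups. IR changed EGR1 by 0.61 ± 0.11 without and by -0.81 ± 0.11 with the guide, an interaction of -1.42 ± 0.15 (limma adjusted p = 0.0238). Of its 5 other probe sets 2 were called the same way and the highest stood at 0.08. The EGR1 call was lost with values under 5 log2 set to 5 and with no moderation. HBEGF, a membrane-bound ligand of the EGF receptor, read 8.12 and 8.05 in control, 10.17 and 10.18 in sgBAP1, 8.44 and 8.37 in IR and 9.60 and 9.54 in sgBAP1 + IR. The irradiated arrays lay slightly above control without the guide and well below sgBAP1 with it. Its IR effects were 0.32 ± 0.06 and -0.60 ± 0.06, and the interaction was -0.92 ± 0.08 (limma adjusted p = 0.0183). DUSP5, the nuclear phosphatase of ERK, gave IR effects of -0.18 and -0.94 and an interaction of -0.76 ± 0.07. Of 21 measured genes of MAPK output and EGF receptor ligands these 2 were called lower, against 0.309% of all genes, and none higher. In this list 14 (66.7%) were below 0, against 44.4% of all genes. Its median interaction was -0.18 log2, beside 0.02 over all genes. SPRY2, a feedback inhibitor of receptor signalling, was at -0.51 with an adjusted p of 0.0439 but under the fold threshold. Of 21 AP-1 and immediate early genes 1 (4.76%) was called lower, EGR1, against 0.309% of all genes. The median interaction of that list was -0.13 log2, and 15 of 21 (71.4%) were below 0, against 44.4% of all genes. The other members included JUN (-0.13), FOSL1 (-0.05) and MYC (-0.28), none of which passed.

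Replication-dependent histone genes formed the list with the largest share of called members. H2BC4 read 5.18 and 5.34 log2 in control, 6.97 and 6.84 in sgBAP1, 6.48 and 6.47 in IR and 6.66 and 6.84 in sgBAP1 + IR. The control arrays were the lowest, and the ranges of sgBAP1 and sgBAP1 + IR met at 6.84. IR raised H2BC4 2.33-fold without the guide, its effect with the guide was -0.15 ± 0.08 log2, and the interaction was -1.37 ± 0.12 (limma adjusted p = 0.0183). H2BC12 read 10.65 and 10.53 in control, 11.28 and 11.20 in sgBAP1, 11.64 and 11.61 in IR and 11.57 and 11.52 in sgBAP1 + IR. Both irradiated groups stood above sgBAP1 and control, and close to each other. Its interaction was -0.73 ± 0.09, while its other probe set was at -0.05. H2BC11 had IR effects of 0.36 and -0.69 (interaction -1.06 ± 0.12) and H2BC5 of 1.26 and 0.45 (-0.80 ± 0.10). The linker histone H1-2 (-0.68) and H2AC20 (-0.63) were called as well. In all, 6 of 30 measured replication-dependent histone genes (20%) were called lower and none higher, against 0.309% of all genes called lower. The list as a whole shifted little: its median interaction was -0.05 log2 and 17 of 30 (56.7%) were below 0, against 44.4% of all genes. Members such as H4C3 (0.14), H2BC6 (0.13) and H1-5 (-0.09) did not pass. The called histone genes other than H2AC20 were above 0 for IR without the guide and for the guide alone. Replication-dependent histone messages normally lack a poly(A) tail, and the kit that prepared these targets primes from poly(A), so a level here need not follow total histone message. Of the 32 called genes named here, 13 sit on probe sets marked as shared or cross-hybridising, H2BC4 and H2BC11 among them, so the split among H2B genes is uncertain. H2BC11 was dim in control cells, at a mean of 4.63 log2. With all probe sets of a gene averaged, 3 histone genes were called.

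The growth arrest genes GADD45A and CDKN1A also fell short of the sum. GADD45A read 8.90 and 8.85 log2 in control, 11 and 11.02 in sgBAP1, 9.86 and 9.90 in IR and 10.83 and 10.85 in sgBAP1 + IR. The 4 groups were fully separated, with sgBAP1 the highest. IR raised GADD45A by 1.01 ± 0.05 without the guide, against -0.17 ± 0.05 with it (interaction -1.18 ± 0.07, limma adjusted p = 0.0183), and 12.02 log2 would have been the sum of both single effects. CDKN1A, which encodes the cyclin-dependent kinase inhibitor p21, read 9.59 and 9.60 in control, 10.87 and 10.77 in sgBAP1, 10.24 and 10.25 in IR and 10.73 and 10.70 in sgBAP1 + IR. It was lowest in control and differed little between both guide groups. Its IR effects were 0.66 ± 0.06 and -0.10 ± 0.06, and the interaction was -0.76 ± 0.08. These were the only 2 of 26 measured p53 target genes (7.69%) that were called, against 0.309% of all genes called lower. The list had a median interaction of -0.07, with 16 (61.5%) below 0, against 44.4% of all genes. MDM2 (-0.17), BAX (0.20) and TP53I3 (0.03), which working p53 raises, did not pass. DDIT3, the CHOP transcription factor of the unfolded protein and integrated stress responses, had IR effects of 0.56 and -0.30 and an interaction of -0.85 ± 0.11. DDIT4, an mTORC1 inhibitor induced by stress, went the other way, with IR effects of -0.04 and 0.56 and an interaction of 0.59 ± 0.07. Both belong to the 29 measured unfolded protein and ATF4 response genes, of which no other was called, against 0.463% of all genes called either way.

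**Figure D2:**
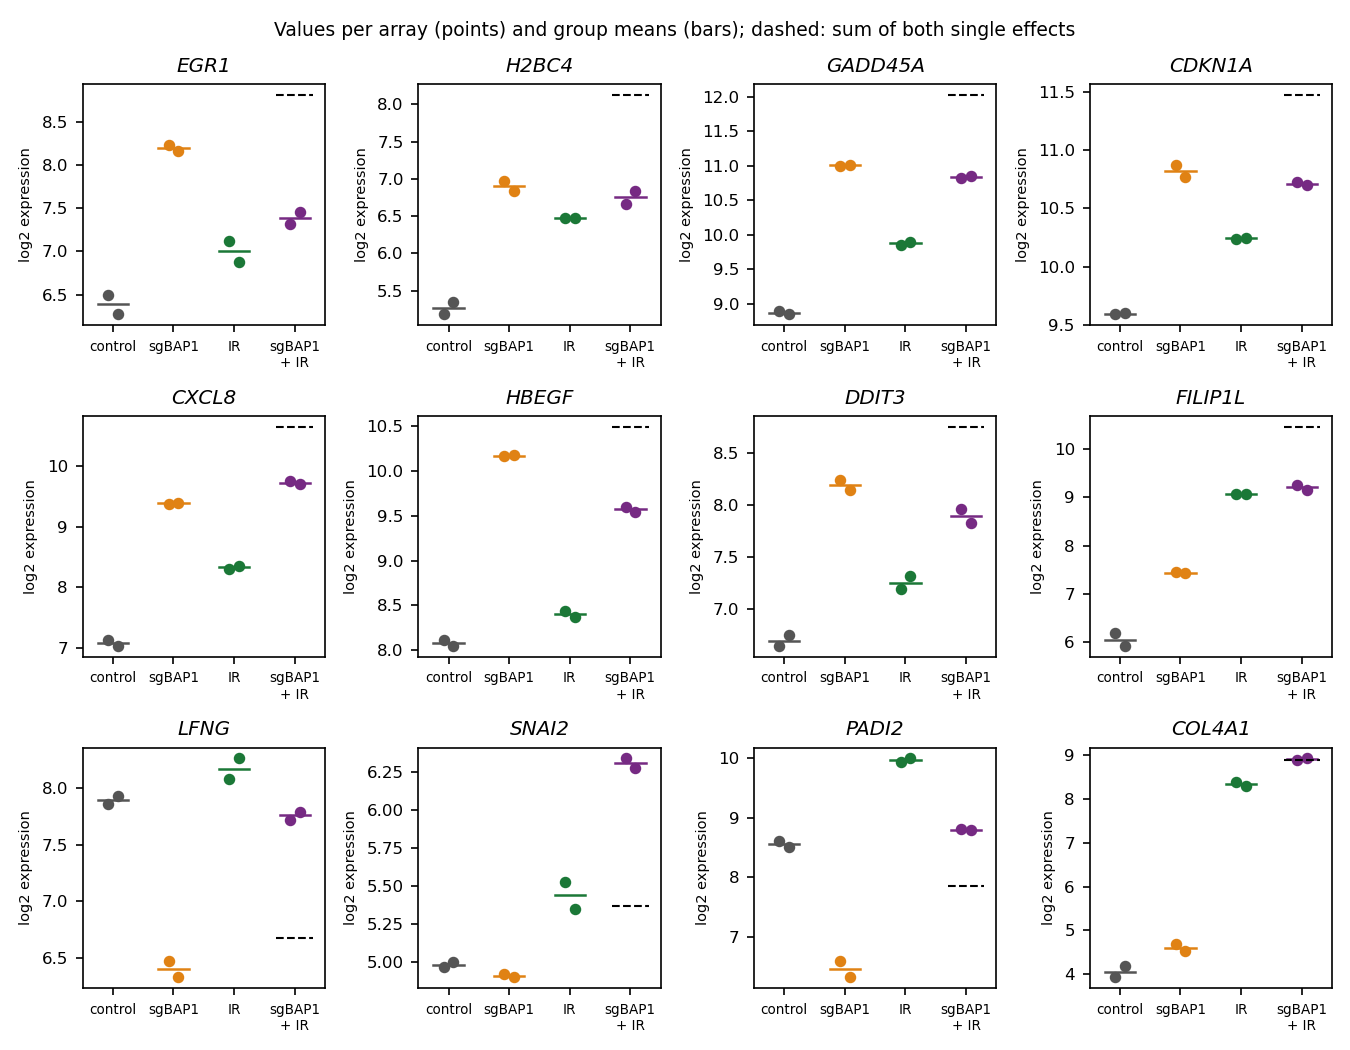
log2 expression of 12 named genes on each of the 8 arrays (points, 2 per group) with group means (bars); the dashed line is the level that the sum of both single effects gives for sgBAP1 + IR. The doubly treated arrays lie below that line in the first 8 genes, by 1.42 log2 for EGR1, above it in LFNG, SNAI2 and PADI2, and on it in COL4A1.

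Inflammatory genes were called in 1 of 27 measured members, CXCL8, against 0.463% of all genes called either way. This chemokine, interleukin 8, draws neutrophils and is a common product of stressed epithelial cells. It read 7.12 and 7.03 log2 in control, 9.38 and 9.4 in sgBAP1, 8.30 and 8.35 in IR and 9.75 and 9.70 in sgBAP1 + IR. Unlike EGR1 and GADD45A, it was highest with both treatments. IR raised it 2.39-fold without the guide, against a fold of 1.26 with it, an interaction of -0.92 ± 0.08 (limma adjusted p = 0.0183). On the linear scale the same contrast was only -13.5 signal units, so its shortfall depends on the scale. Other NF-kB targets had values on the same side without passing: CCL20 at -1.36 (adjusted p = 0.0819), TNFAIP3 at -0.66 (0.0599), ICAM1 at -0.58 (0.0884) and NFKBIA, the inhibitor of NF-kB, at -0.42 (0.0658). CCL2 had an adjusted p of 0.0488 but at -0.54 was under the fold threshold. The median interaction of the list was -0.22 log2, with 17 of 27 (63.0%) below 0, against 44.4% of all genes. The medians of its 2 IR effects, 0.16 without and 0.22 with the guide, were in the other order. Each median falls on different genes. Members such as CXCL3 (0.47), IL6 (0.36) and CSF1 (0.20) lay above 0.

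Many interferon-stimulated genes rose with IR in each genotype. Of 37 measured genes 18 were called higher after IR without the guide and 20 with it, against 2.2% and 1.9% of all genes, with medians of 0.572 and 0.615 log2. The antiviral GTPase gene MX1 rose by 2.65 and 2.77 log2, OASL by 1.31 and 1.51, and IRF9, the DNA-binding subunit of the interferon-activated complex ISGF3, by 1.38 and 1.51. The median interaction was 0.10 log2 and 15 of 37 (40.5%) were below 0, against 44.4% of all genes. IRF1, a transcription factor shared by the interferon and NF-kB responses, was the only called member (2.7%, against 0.309% of all genes called lower). Its IR effects were 1.3 without and 0.57 with the guide (-0.73 ± 0.08, limma adjusted p = 0.0239). IFI44 (0.57, adjusted p = 0.0887) and IFI35 (0.49, adjusted p = 0.123) had values on the other side and did not pass. Among 21 measured genes of MHC class I presentation, which interferon also raises, none was called. HLA-B (-0.56, adjusted p = 0.0381) and HLA-E (-0.50, adjusted p = 0.0376) passed the adjusted p but not the fold.

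Further genes with a lower interaction included a filamin partner, TGF-beta targets and secreted proteins. FILIP1L, which encodes a filamin-interacting protein, read 6.20 and 5.93 log2 in control, 7.46 and 7.43 in sgBAP1, 9.07 and 9.07 in IR and 9.26 and 9.15 in sgBAP1 + IR. The guide raised it in unirradiated cells, and both irradiated groups lay above it and close to each other. Its IR effect was 8.06-fold without and 3.39-fold with the guide (interaction -1.25 ± 0.13), and of 6 other probe sets 1 was called the same way while the highest was at 0.14. Thrombospondin 1, THBS1, rose by 2.27 and 1.48 (-0.79 ± 0.12, adjusted p = 0.0478, the weakest call of the named genes, with another probe set at 0.10). SKIL, a repressor of SMAD-driven transcription that TGF-beta itself induces, had IR effects of 0.09 and -0.79 (-0.88 ± 0.09). THBS1 and SKIL were the called members among 27 TGF-beta target genes, against 0.309% of all genes called lower, and the list's median interaction was -0.02 log2. The collagenase MMP1 had IR effects of 0.56 and -0.66 (-1.22 ± 0.11) and was dim in control cells (mean 4.36 log2, close to the lower quartile). With values under 5 log2 set to 5 its interaction was -0.66, still called. The remaining named genes of this direction were the neuropeptide galanin, GAL (-1.0 ± 0.10), the class IIa histone deacetylase HDAC9 (-0.98 ± 0.07), MAP3K7CL (-1.0 ± 0.13) and the phospholipid flippase ATP8B1 (-0.89 ± 0.09). ATP8B1 was a case where IR was strong in both genotypes, 6.16-fold and 3.33-fold. Of the 56, 37 were not reached by the naming rule. Picked from them after their values were seen, the gap junction gene GJA1 stood at -0.88, the serum- and glucocorticoid-regulated kinase SGK1 at -0.82, the pentraxin PTX3 at -0.79, the lymphangiogenic factor VEGFC at -0.68 and the caspase CASP4 at -0.65.

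Most of the 28 genes with a higher interaction had single effects below 0, more so for the guide than for IR. The guide alone was above 0 in 1 and called lower in 22, against 2.61% of all genes. IR without the guide was called lower in 14, against 1.38% of all genes, and higher in 1, PADI2. It was above 0 in 5, LFNG, PADI2 and SNAI2 among them. The control group had the highest mean in 21. With the guide, IR raised 7 and lowered 3. As above, the control arrays enter every term. LFNG, the glycosyltransferase Lunatic fringe that modifies Notch receptors, read 7.86 and 7.93 log2 in control, 6.47 and 6.33 in sgBAP1, 8.08 and 8.26 in IR and 7.72 and 7.79 in sgBAP1 + IR. Only the sgBAP1 arrays were low. IR raised LFNG 2.56-fold in guide cells, against a fold of 1.21 without the guide, an interaction of 1.08 ± 0.12 (limma adjusted p = 0.0227). PADI2, which converts arginine to citrulline in proteins, read 8.62 and 8.51 in control, 6.60 and 6.32 in sgBAP1, 9.94 and 10.00 in IR and 8.81 and 8.79 in sgBAP1 + IR. It was lowest with the guide alone and highest with IR alone. IR raised it 5.06-fold with and 2.64-fold without the guide (0.94 ± 0.13, limma adjusted p = 0.04). Its 3 other probe sets ran from 0.01 to 0.48 without a call. The PADI2 call was lost with values under 5 log2 set to 5 and with no moderation. The same contrast for PADI2 on the linear scale was -265 signal units, so its direction depends on the scale. On the linear scale 82 of the 84 called genes had the same sign as on the log2 scale. The sign does not give the size: CXCL8 stood at -13.5 and THBS1 at -8.36 signal units, against -702 for GADD45A.

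SNAI2 showed a different order of groups. It encodes SLUG, a transcription factor that represses E-cadherin during epithelial-mesenchymal transition, and read 4.97 and 5.0 log2 in control, 4.92 and 4.90 in sgBAP1, 5.53 and 5.35 in IR and 6.34 and 6.28 in sgBAP1 + IR. The guide made little difference without IR, and the doubly treated arrays were the highest by a clear gap. The IR effects were 0.46 ± 0.07 and 1.40 ± 0.07, and the interaction was 0.94 ± 0.10 (limma adjusted p = 0.0218). SNAI2, the fibrillar collagen COL5A2 (0.77 ± 0.09) and the calcium-binding S100A4 (0.72 ± 0.07) were the called members among 31 measured mesenchymal genes, against 0.154% of all genes called higher, and the list's median interaction of 0.02 log2 was close to that of all genes. Their IR effects were unlike one another. They were -1.01 without and -0.25 with the guide for COL5A2, and -0.35 and 0.37 for S100A4. Another COL5A2 probe set was at -0.18, whereas both other S100A4 probe sets were called the same way. FN1, which encodes fibronectin, rose by 3.23 and 3.12 log2 (interaction -0.10), and VIM, which encodes vimentin, had IR effects of -0.14 and -0.18. MMP2 was at -1.17 with an adjusted p of 0.0579. None of 30 measured epithelial genes was called.

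The other named genes with a higher interaction came from varied families. BTNL9, a butyrophilin-like surface protein, fell by 1.82 log2 after IR without the guide and by 0.86 with it (interaction 0.96 ± 0.13, with 2 other probe sets at -0.22 and -0.04). The calcium channel subunit CACNA1A fell by 1.56 and by 0.68 (0.88 ± 0.12). The water and glycerol channel AQP3 fell by 0.97 without the guide and stood at -0.02 with it (0.95 ± 0.13). The IR effects of CELSR2, an atypical cadherin of planar polarity, were -0.66 and 0.15 (0.82 ± 0.12, with its other probe set at 0.19). Those of FRAT2, a GSK3-binding protein of the Wnt pathway, were -0.49 and 0.27 (0.76 ± 0.10), and those of the flippase ATP8B3 were -0.74 and -0.03 (0.71 ± 0.07). LXN, a carboxypeptidase inhibitor, had IR effects of -0.09 and 0.72 (0.81 ± 0.10), and its second probe set was called the same way. Of the 15 genes of this direction outside the naming rule, chosen after their values were seen, the DNA demethylation enzyme TET1 stood at 0.67, the necroptosis effector MLKL at 0.63 and the glycolytic regulator PFKFB4 at 0.68.

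**Figure D3:**
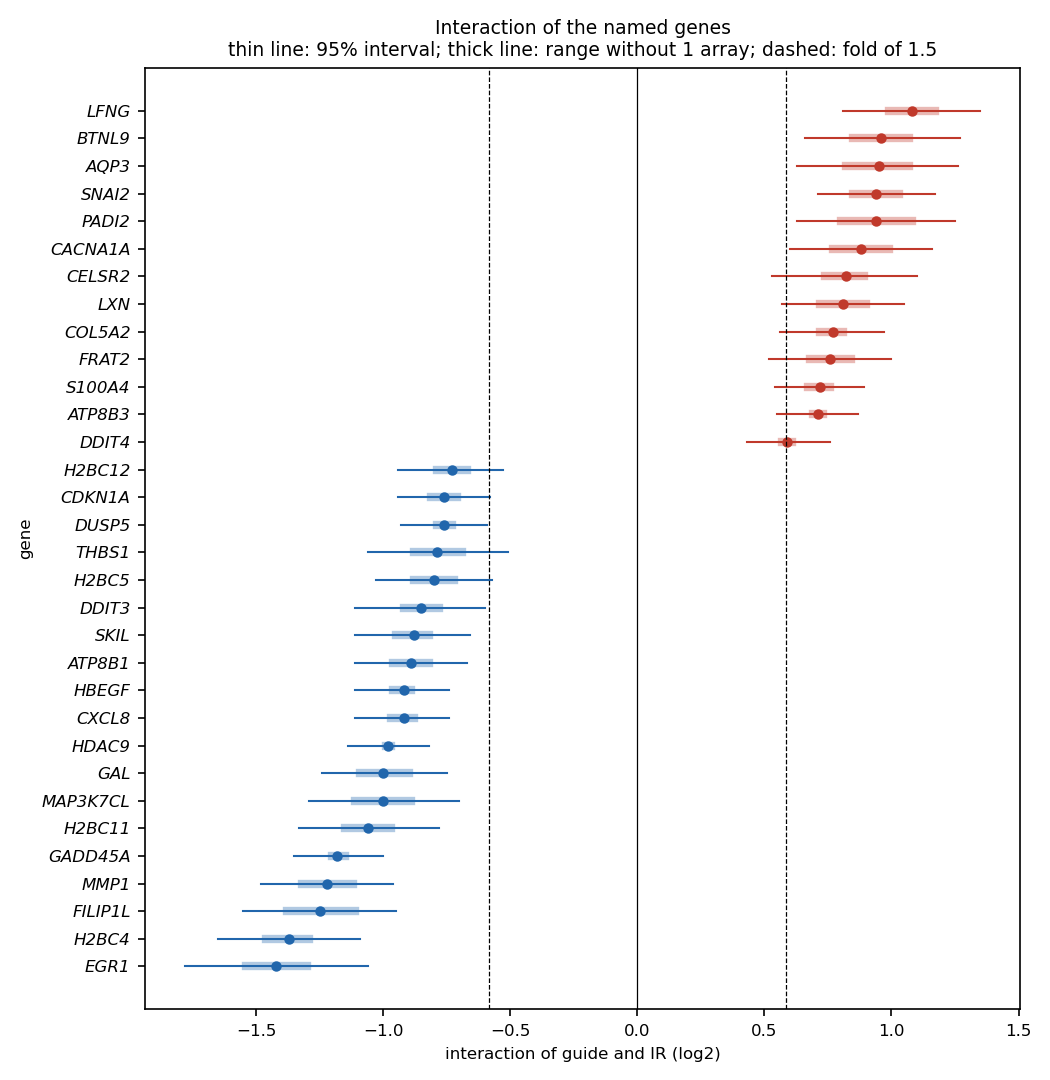
Interaction in log2 of the 32 named genes with a call (points), with its 95% interval (thin line) and the range of estimates when each array is left out in turn (thick line), from 2 arrays per group; dashed lines mark a fold of 1.5. Each estimate keeps its side of 0 without any 1 array, and DDIT4, the smallest at 0.59, reaches down to 0.57.

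Of the 32 named genes with a call, 27 had other probe sets. In 11 of these another probe set was called the same way, and in 7 another had the opposite sign. The last group was EGR1, FILIP1L, THBS1, HDAC9, H2BC11, COL5A2 and BTNL9. With 1 array left out, 31 of the 32 kept an estimate over the fold threshold in all 8 fits, DDIT4 being the exception. These genes were selected on the same arrays, so this too is a description. The genes just inside the fold threshold stood at 0.588 and 0.588 in size and those just outside it, with an adjusted p under 0.05, at 0.58 and 0.579.

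In several lists the medians of both IR effects differed although no member was called. Of 39 measured mitosis and G2/M genes none was called for the interaction, while 3 (7.69%) were below 0, against 44.4% of all genes. Their median interaction was 0.15 log2, beside 0.02 for all genes. The median IR effect was -0.31 log2 without the guide, where 5 genes were called lower against 1.38% of all genes, and -0.17 with it, where none was. The mitotic kinase PLK1 had IR effects of -0.64 and -0.11 (interaction 0.52, adjusted p = 0.0524), and the phosphatase CDC25B of 0.02 and 0.56 (0.54, adjusted p = 0.0368, under the fold threshold). BUB1 (-0.47 and -0.46) and ECT2 (-0.46 and -0.47) had nearly equal effects. DNA replication genes had no such difference of medians (-0.12 and -0.13). For cholesterol biosynthesis genes the order was the other way, with median IR effects of -0.23 without and -0.47 with the guide and 1 and 4 of 16 genes called lower, against 1.38% and 1.29% of all genes. None of the 16 had a called interaction. The median interaction was -0.18, and 13 (81.2%) were below 0, against 44.4% of all genes. DHCR7, the last enzyme of the pathway, had IR effects of -0.32 and -0.74 (interaction -0.42, adjusted p = 0.0656), and MSMO1 of -0.45 and -0.79. Double-strand break repair, ATM and ATR signalling, HOX genes, the Polycomb and BAP1-complex genes and housekeeping genes had no called interaction and medians between -0.02 and 0.07 log2. These medians are descriptions over genes that share arrays, without a test.

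**Figure D4:**
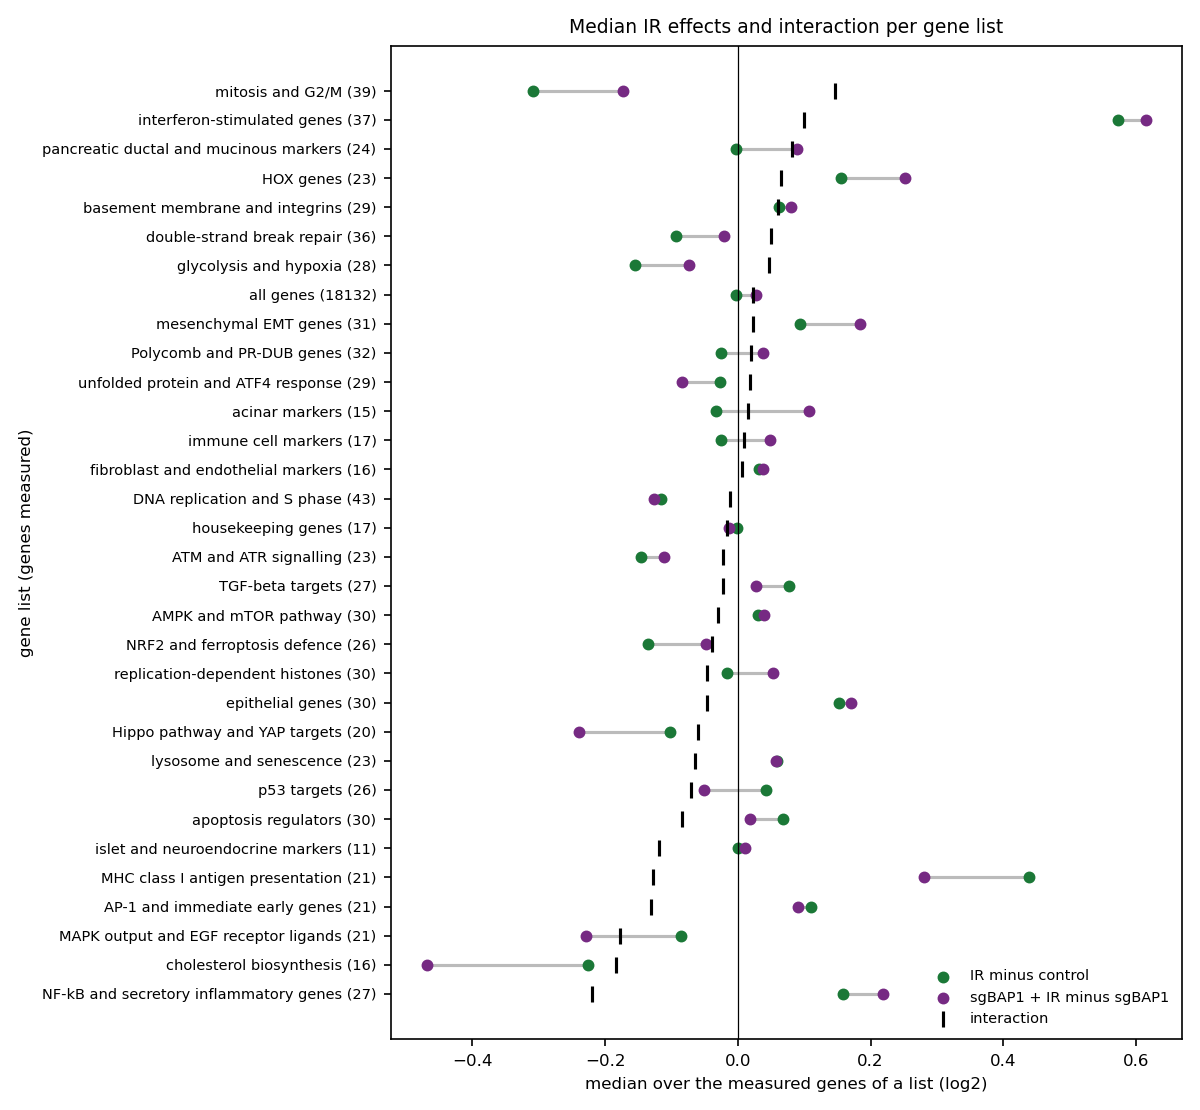
Median change after IR over the measured genes of each list, without (green) and with (purple) the guide, and the median interaction (black tick), in log2, from 2 arrays per group, with the number of measured genes in brackets. Mitosis and G2/M genes have the highest median interaction of the plotted lists (0.147) and the inflammatory list the lowest (-0.219), against 0.0232 over all genes.

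Neighbouring genes along the chromosomes were compared by the median interaction of windows of 50 genes. The windows ran over 13289 placed genes with a mean of at least 5 log2 in any group. One stretch reached a median of 0.15 log2 in size. It lay on the short arm of chromosome 3, from ELP6 to CDHR4, at chr3:47495640-49802914 on GRCh38.p14. There the median interaction was 0.17 log2, with 40 of 50 genes above 0, beside 55.6% of all 18132 genes. That share includes dim genes, which the windows left out. The stretch was picked for its median among 12149 overlapping windows, so that count is not independent of the choice. The median IR effect there was -0.225 log2 without and -0.103 with the guide, and the median guide effect was -0.128 without and 0.0299 with IR. PFKFB4 is one of its genes. With windows of 30 genes a stretch of chromosome 12 from PIANP to GDF3 was reached as well (0.15), and with windows of 100 genes none was.

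Promoters of called genes were then searched for the motifs of factors that act on immediate early, inflammatory and histone genes. This comparison and the genes shown were chosen after the values were seen. Each promoter spans 250 bases before to 50 after the start site in RefSeq on GRCh38.p14, and sequences were found for 41 of the 56 genes with a lower interaction and for 22 of the 28 with a higher one. The AP-1 motif (TGANTCA, both strands) was present in 6 of the 41 (14.6%) and none of the 22, against 5.8% of the 14425 promoters of tested genes and 7.76% of all promoters of this length. The NF-kB motif (GGGANTTTC) was present in 1 of the 41 (2.44%: TNFRSF9), against 1.24% of tested genes and 1.3% of all promoters. Stretches that depart from these letters were not counted, so the lack of a match in CXCL8 does not show that it lacks a site. The octamer (ATTTGCAT), which Oct-1 binds in H2B promoters, was present in 6 of the 41 (14.6%) and none of the 22, against 1.62% of tested genes and 1.8% of all. Of those 6, 4 were histone genes, and 12 of 21 other measured histone promoters (57.1%) held it too, so it did not set the called histone genes apart. The CArG box, bound by serum response factor, was present in 5 of the 41 (12.2%: EGR1, FILIP1L, RND3, RCAN1 and H2AC20) and in 1 of the 22 (AQP3), against 1.25% of tested genes and 1.29% of all. A match is a description of letters and not evidence of binding.

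The promoters printed here are those of EGR1, with the largest interaction in size, of the chemokine CXCL8, and of 2 called H2B genes that carry the octamer. Capitals mark the CArG boxes in EGR1 (bases -105 to -96 and -83 to -74 from the start site), the AP-1 motif in CXCL8 (-137 to -131) and the octamer in H2BC4 (-123 to -116) and H2BC12 (-46 to -39). They lie on GRCh38.p14 at chr5:138465229-138465528 on the plus strand, chr4:73740319-73740618 on the plus strand, chr6:26123877-26124176 on the minus strand and chr6:27146809-27147108 on the minus strand, in that order.
EGR1: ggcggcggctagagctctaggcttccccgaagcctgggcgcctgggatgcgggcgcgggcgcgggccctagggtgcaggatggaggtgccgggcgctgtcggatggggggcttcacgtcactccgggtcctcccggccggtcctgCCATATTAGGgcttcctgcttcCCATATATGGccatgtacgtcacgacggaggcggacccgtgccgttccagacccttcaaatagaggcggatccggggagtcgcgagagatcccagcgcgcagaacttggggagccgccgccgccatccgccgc
CXCL8: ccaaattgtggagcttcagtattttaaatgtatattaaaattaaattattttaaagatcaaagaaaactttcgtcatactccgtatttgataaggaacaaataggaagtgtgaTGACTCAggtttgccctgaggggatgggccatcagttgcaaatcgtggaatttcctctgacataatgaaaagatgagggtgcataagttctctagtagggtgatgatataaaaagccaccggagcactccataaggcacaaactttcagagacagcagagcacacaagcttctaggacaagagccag
H2BC4: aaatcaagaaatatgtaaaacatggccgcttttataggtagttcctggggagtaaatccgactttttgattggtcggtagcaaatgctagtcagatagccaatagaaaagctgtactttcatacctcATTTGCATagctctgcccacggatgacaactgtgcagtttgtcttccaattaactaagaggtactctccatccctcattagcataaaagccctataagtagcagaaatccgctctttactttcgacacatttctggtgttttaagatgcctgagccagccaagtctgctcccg
H2BC12: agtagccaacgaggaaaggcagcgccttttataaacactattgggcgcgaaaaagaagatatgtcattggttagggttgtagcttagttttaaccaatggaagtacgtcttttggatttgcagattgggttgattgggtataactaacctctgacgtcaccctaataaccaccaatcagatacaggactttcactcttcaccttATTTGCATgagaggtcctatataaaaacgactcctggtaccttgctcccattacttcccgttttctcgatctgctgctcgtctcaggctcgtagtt
The EGR1 promoter held both CArG boxes close together, and this gene was at -1.42 log2. H2BC12 carried the octamer nearer to the start site than H2BC4, and their interactions were -0.73 and -1.37, with the other H2BC12 probe set at -0.05. Whether the number or position of motifs goes with the size of the interaction was not tested.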

How the data were processed

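RNA from 8 PANC1 samples was hybridised to Affymetrix PrimeView 3' arrays. The deposited values are log2 expression that the authors obtained by RMA (background subtraction, quantile normalisation and probe set summary) in Expression Console. Of 49395 probe sets, 102 controls were left out and 49293 tested without a signal filter; 44988 had a single gene symbol in the platform annotation, 1832 several and 2473 none. There are no counts, and the number of arrays limits precision.

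Groups came from the labels, numbered in accession order. limma 3.58.1 (lmFit, eBayes, R 4.3.3) fitted 4 group means over 8 arrays (4 residual and 3.22 prior degrees of freedom, median SD within groups 0.0787). The median standard error of the interaction was 0.107 log2. The code was tested on simulated data. Named genes had a group mean of at least 5 log2: the 12 largest called interactions each way, up to 4 called members of lists with 2 or more called, and the 6 largest mean IR effects with a bounded interaction. The members and the 31 gene lists were chosen with earlier results of these data known. Alternatives covered the threshold, moderation, prior, scaling, dim probe sets, a floor, the scale, probe set choice and leaving out arrays. Chromosome order and promoters came from RefSeq on GRCh38.p14.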

Additional observations from a re-analysis of the deposited data

Results flagged for a closer look

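For 32 named genes the effect of IR differed between cells with and without the guide by the limma interaction test (adjusted p 0.0183 to 0.0478, n = 2 arrays per group), with no call left when any 1 array was removed. Values are the IR fold change with the guide divided by that without it, and the arrays of control cells enter each of them. Explanations were not tested.

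The ratio was above 1 for LFNG (2.12), BTNL9 (1.95), AQP3 (1.93), PADI2 (1.92), SNAI2 (1.92), CACNA1A (1.84), CELSR2 (1.76), LXN (1.76), COL5A2 (1.7), FRAT2 (1.7), S100A4 (1.64), ATP8B3 (1.63) and DDIT4 (1.51). These include a Notch modifier, 2 membrane channels and 3 genes of the mesenchymal list.

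The ratio was below 1 for immediate early, growth arrest and stress genes, namely EGR1 (0.374), GADD45A (0.443), CDKN1A (0.591), DDIT3 (0.554), HBEGF (0.527) and DUSP5 (0.59). It was below 1 for 4 histone H2B genes, H2BC4 (0.386), H2BC11 (0.481), H2BC5 (0.573) and H2BC12 (0.602). Among secreted and other products it was below 1 for FILIP1L (0.421), MMP1 (0.429), GAL (0.501), MAP3K7CL (0.501), HDAC9 (0.507), CXCL8 (0.527), ATP8B1 (0.541), SKIL (0.542) and THBS1 (0.58).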

How the results depend on the processing

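All 32 named genes kept their sign and their call with array medians subtracted. They also kept their call with a trend and robust prior and without dim probe sets, where the estimates themselves do not change. The dim filter could not remove a named gene, because naming required the same level of 5 log2. The methods' unadjusted p under 0.01 is a looser cut on the same fit, so no call could be lost there. After a further quantile normalisation THBS1 (-0.75) lost its call. With values under 5 log2 set to 5 the calls of 10 were lost: EGR1, PADI2, BTNL9, AQP3, CACNA1A, CELSR2, FRAT2, DDIT3, THBS1 and MAP3K7CL. Apart from MAP3K7CL (-0.81), their estimates did not change. MMP1 moved to -0.66 and kept its call, COL4A1 moved to 0.56, ANXA3 to 0.34 and NEFL to 0.70. With no moderation the calls of 26 were lost, EGR1 and PADI2 among them. On the linear scale PADI2 turned to -265 signal units, while CXCL8 (-13.5) and THBS1 (-8.36) kept their sign with small values. The interaction was called higher for 149 and lower for 335 probe sets (58 and 108 genes) at the methods' threshold, for 7 and 21 (4 and 11 genes) with no moderation, for 164 and 362 (61 and 111 genes) with a trend and robust prior and for 93 and 278 (44 and 95 genes) without dim probe sets. Without 1 array the number called ranged from 0 to 0, whichever array was left out, with 3 residual degrees of freedom; the lone array of its group is then assumed to vary like the other groups. With the probe sets of a gene averaged, the interaction was called higher for 18 genes and lower for 58. Among the lists, 1 TGF-beta target and 3 histone genes were then called lower. Windows of 30 genes gave 2 named stretches and windows of 100 genes 0. The counts of both IR and both guide effects stayed within 1.5 times under each alternative run. No paired analysis was possible because replicate numbers here follow accession order and tie no array to one of another group. The cause of these changes was not tested. Precision is limited by 2 arrays per group, by control means under 5 log2 for ANXA3, FGFBP1, COL4A1, NEFL, MMP1, MAP3K7CL, H2BC11 and SNAI2, and by probe sets that share sequence with paralogs.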
